A study of Drosophila melanogaster with 28 samples.

Results

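The longest coding regions of the fly are described here through 252 transcripts of Drosophila melanogaster, taken from 34703 transcripts with deposited counts. A transcript qualified when the length value listed with it was 2500 or more, which 619 transcripts met. In file order, a transcript whose counts summed over the 28 libraries lay within 5% of the last one kept was then dropped, so that most near-identical isoforms enter once. The members are 0.831% of the 30340 transcripts that have a length value. No measured difference between groups entered the choice.

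Ribosome profiling and RNA-seq were done on flies that were wild type (WT, y1 w1118) or carried a knockout of Mettl1, which the series title ties to m7G modification of tRNA and to male fertility. Ribosome profiling sequences the pieces of mRNA that translating ribosomes shield from nuclease, called footprints. The 28 libraries form 14 groups of 2 replicates: WT and knockout testis in an earlier set 1 and a later set 2, and WT, KO1 and KO2 samples labelled body, each in both assays. Nothing says whether replicates came from separate cultures of flies, so p-values measure only the spread between these samples. Testes came from adult males aged 2 to 3 days, pooled at 600 pairs per sample and dissected in cycloheximide at 100 µg/ml. The protocol text names 1 knockout line for testis, Mettl1KO1, whereas a digit in the titles of the knockout testis libraries was read as a replicate and may name a line instead. The same protocol text stands with the body samples, whose age and pooling are therefore not known. The targeted transcript and tissue markers were not analysed here, because the transcript identifiers are not paired with gene names, and genotype and tissue are as labelled.

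Transfer RNA carries amino acids to the ribosome, and Mettl1 is the catalytic subunit of the enzyme that puts a methyl group on a guanine of some tRNAs. A long coding region holds more codons and takes a ribosome longer to cross, so each of its mRNAs can carry many ribosomes at once. In flies, giant coding regions include those of muscle scaffold proteins, spectraplakins and extracellular matrix proteins. Spermatogenesis also uses some very long transcripts, among them those of axonemal dynein heavy chains, the motors of the sperm tail.

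The length values of the members ran from 2500 to 22940, with a median of 3224.5 and quartiles of 2769.25 and 4328.75. The median over all transcripts with a value was 459. Just inside the threshold lay values of 2500, 2502 and 2503, and just outside lay 2492, 2494 and 2496. The unit of the column is not stated. Its values were divisible by 3 in 33.1% of transcripts, near an even split, and the transcript paired with the histone gene His4r held 94, close to the number of codons of a histone H4 and far from its coding bases. Members of 5000 or more numbered 42 and those of 10000 or more numbered 17. Those 17 came from 7 loci, where a locus is a group of transcripts listed close together with near-identical count profiles. Over all, the 252 members fell into 178 loci, of which 143 held 1 member and 35 held several, up to 8. Members of 1 locus share most of their reads and are not independent. Separate loci are not always independent either. FBtr0307311 and FBtr0307312, both of length 2545, fell in different loci, yet each had a log2 change of -0.44 in knockout RNA of testis set 1. In file order, members formed 110 runs parted by more than 50 lines, and 149 parted by more than 10. Across the 35 loci with several members, the members' WT testis over body values lay within a median range of 0.09 on the log2 scale.

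A reference gene table named 1 member directly. FBtr0077014 belongs to LanA, the laminin alpha chain of basement membranes, and its length value was 3703. Members FBtr0308254, FBtr0299837 and FBtr0308255, of lengths 5243, 5508 and 5182, share a locus with FBtr0078144 of kis, which encodes a chromodomain chromatin remodeller. The other members are given by identifier only.

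Members took a small share of the reads, larger in body than in testis. Among footprint counts, members made up between 2.43% and 2.88% in the 4 libraries of testis set 1, between 1.72% and 2.03% in those of set 2, and between 3.07% and 3.75% in the 6 body libraries. Among RNA-seq counts the share lay between 3.48% and 3.78% for set 1, between 3.53% and 4.49% for set 2, and between 6.91% and 7.93% for body. Isoforms of 1 locus share reads, so these sums can count a read more than once. With 1 member per locus, footprint shares were 1.94% to 2.30%, 1.37% to 1.61% and 2.30% to 2.80% in set 1, set 2 and body. Knockout libraries of set 1 and body then nearly met, at 2.18% and 2.30% against 2.30% to 2.32%. WT libraries stayed apart, at 2.02% and 1.94% in set 1 and 2.73% and 2.80% in body. RNA-seq shares were 2.86% to 3.07%, 2.66% to 3.28% and 4.72% to 5.32%. Depth over all features set how much could be seen. Footprint libraries held between 325530 and 10344089 counts. RNA-seq libraries held at least 8718808 counts in set 1, but at most 178788 in set 2 and at most 76658 in body. Accordingly 245 members had at least 10 counts in each WT RNA-seq library of set 1, but 105 did in set 2 and 68 in body. For footprints, 244 members did in set 2 WT testis and 243 in WT body.

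Per length, giant coding regions held fewer footprints than the typical transcript in testis and in body. Levels are given as CPM, the count scaled to library size, per 1000 length units. In WT testis of set 2 the median was 6.49 for the members and 24.5 for all 15231 features, a feature being a member or 1 transcript for each locus without one. In WT body the medians were 13.9 and 23.3. WT RNA-seq medians were 14.5 and 31.2 in testis set 1 and 15.9 and 24.0 in testis set 2, members again below all features. Body RNA-seq had the opposite order, with medians of 61.9 for members and 42.8 for all features in WT, 57.3 and 51.5 in KO1, and 63.1 and 49.5 in KO2. In WT body RNA-seq the median feature had a mean of 0.5 counts and the median member 6.

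**Figure D1:**
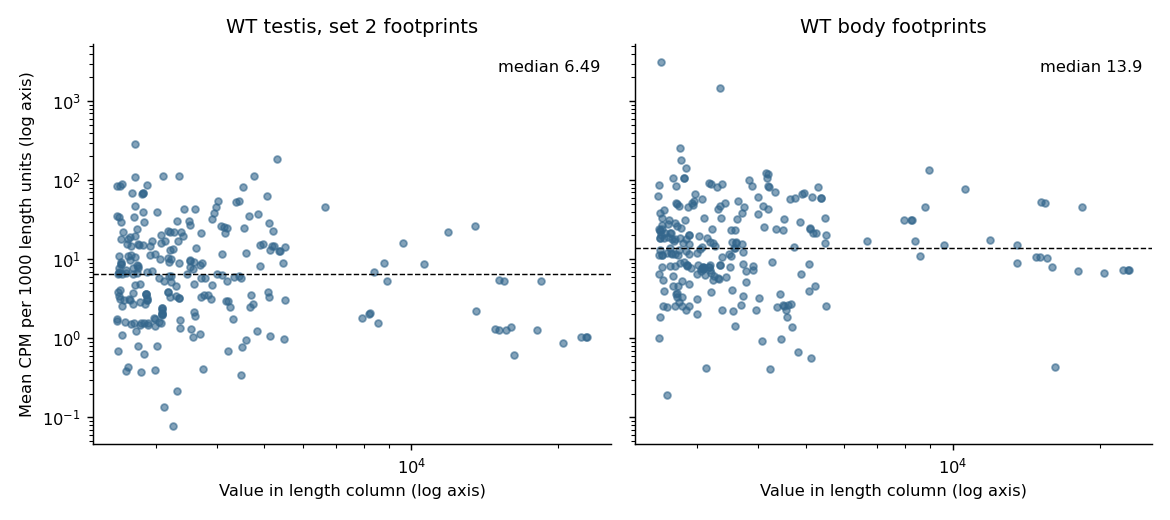
Mean WT footprint level (CPM per 1000 length units, log axis) of each of the 252 members against its length value (log axis), in testis set 2 and in body. Each point is a member, the dashed line is the median over members (6.49 and 13.9), and 2 body points stand above 1000.

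The members with most footprints per length differed between tissues. In testis set 2 they were FBtr0334902, at 290 CPM per 1000 length units, and FBtr0079545, at 186. FBtr0334902 had 810 and 774 CPM in the WT testis libraries of set 2 against 135 in each WT body library. In body, FBtr0335387 stood at 3119 CPM per 1000 length units and FBtr0345296 at 1490. FBtr0335387 alone gave 18.1% and 20.3% of the members' footprint counts in the WT body libraries, and 11.4% to 14.7% in the 4 knockout body libraries. Counted over 1 member per locus, it gave 24.5% and 27.2% in the WT body libraries.

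Giant coding regions leaned towards body. WT footprints were compared between testis set 2 and body with edgeR's quasi-likelihood test, and a feature was called when its Benjamini-Hochberg adjusted p was under 0.05. Of 252 members tested, 159 were lower and 48 higher in testis. That is 63.1% and 19.0% of members, where 40.9% and 39.8% of all features tested were called lower and higher and 80.7% in either direction. The median log2 testis over body was -1.18 for members and -0.05 for all features, with quartiles of -2.34 and 0.27 for members. With 1 member kept per locus the median was -0.77, with 97 of 178 lower and 41 higher. Scaling by DESeq2 size factors moved the median of all features from -0.05 to 0.12 and that of members to -1.01, with 153 lower and 58 higher. In this test of bulk footprints, fewer cells of a type, less RNA per cell and fewer ribosomes per RNA cannot be told apart.

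The longest members leaned furthest. Among the 26 members of 6000 or more, from 14 loci, 80.8% were lower in testis and the median was -2.85. Medians were -0.98, -1.05 and -0.83 in the bins from 2500 to 3000, 3000 to 4000 and 4000 to 6000, and -0.48 among features from 1500 to 2500. Features under 250 had a median of 0.51. Across members the correlation of log2 length with the tissue difference was weak (Pearson r -0.14, n = 252, a description, since isoforms share reads).

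**Figure D2:**
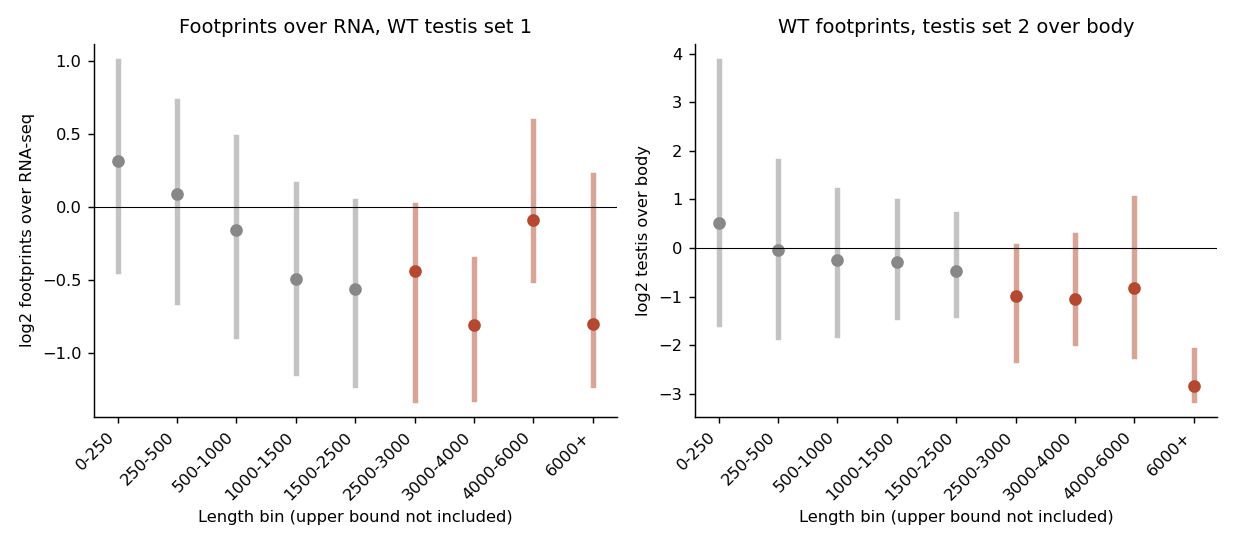
Medians (points) and quartiles (bars) by length bin of the log2 ratio of footprints to RNA-seq in WT testis set 1 and of the log2 ratio of WT footprints in testis set 2 to body; bins that hold members are red. Medians fall from 0.31 to -0.56 and from 0.51 to -0.48 over the bins below 2500, and the 26 members of 6000 or more stand at -0.80 and -2.85.

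The 4 longest members, FBtr0332345, FBtr0332346, FBtr0332348 and FBtr0332350, show this pattern. The first 3 belong to a locus of 8 members, and their values are near-identical. FBtr0332345, the longest at 22940, had footprint levels of 18.6 and 29.0 CPM in WT testis of set 2 and 165 and 167 CPM in WT body. The body libraries lay well above both testis libraries, and the log2 difference was -2.82 (SE 0.23, adjusted p = 1.42e-07 by edgeR). FBtr0332350, at 20395, gave -2.94 (SE 0.22, adjusted p = 6.21e-08).

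The strongest body lean was that of FBtr0345296, with 32.1 and 27.2 CPM in WT testis of set 2 against 5632 and 4329 CPM in WT body. Its log2 difference was -7.39 (SE 0.27, edgeR adjusted p = 9.82e-10). FBtr0273437 followed, with 1.28 and 1.81 CPM in testis and 193 and 154 CPM in body, a log2 difference of -6.84. In both, every WT body footprint library exceeded every WT testis footprint library by far. RNA-seq of WT testis of set 2 and of WT body held fewer counts, and the tissues were scaled apart. RNA of FBtr0345296 had 232 and 289 CPM in testis and 3806 and 2311 CPM in body, the same direction. RNA of FBtr0273437 had 240 and 421 CPM in testis and 252 and 330 CPM in body, which overlap. In WT testis of set 1 it had 4.34 and 3.64 CPM.

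Testis-leaning members were fewer. FBtr0074509, of length 4072, had 117 and 99.8 CPM in WT testis of set 2 against 2.18 and 5.36 CPM in WT body. The log2 difference was 4.61 (SE 0.26, edgeR adjusted p = 6.58e-09). FBtr0289982, of length 4376, had 244 and 226 CPM in testis and 10.9 CPM in each body library, a log2 difference of 4.43. RNA-seq of FBtr0074509 lay the other way. It had 9 and 7 counts (69.7 and 61.3 CPM) in WT testis of set 2, and 18 and 16 (566 and 587 CPM) in WT body. RNA of FBtr0289982 had 16 and 19 counts (124 and 166 CPM), then 1 and 4 (31.5 and 147 CPM). Tissue differences in RNA were not tested. LanA footprints leaned to body, with 32.7 and 30.0 CPM in testis and 167 and 116 CPM in body (log2 difference -2.15, SE 0.21, edgeR adjusted p = 8.33e-07). The kis members FBtr0308254, FBtr0299837 and FBtr0308255 lay close to even at -0.53, -0.51 and -0.52, calls that were lost with the DESeq2 Wald test, without set 2 WT replicate 1 (adjusted p = 0.0508 to 0.0641) and without body WT replicate 2 (0.129 to 0.157).

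Ribosome load per RNA was lower on giant coding regions than on the typical transcript, and so it was on other long ones. In WT testis of set 1, footprints were set against RNA-seq of the same set in 1 model. Of 251 members tested, 105 had fewer footprints for their RNA and 23 had more, 41.8% and 9.16%, where 26.1% and 20.3% of all features were called lower and higher and 46.4% in either direction. The median log2 ratio was -0.48 for members and -0.01 for all features. The median fell with length among shorter features, from 0.31 under 250 to -0.56 between 1500 and 2500, and members did not continue that fall evenly: -0.44, -0.81, -0.09 and -0.80 in the 4 bins upwards from 2500. The values therefore do not set members apart from features of 1500 to 2500. The kis members stood low, at -1.90 to -1.93, and FBtr0335387 stood high at 0.83 (SE 0.13, edgeR adjusted p = 0.0013).

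Loss of Mettl1 was next compared in testis RNA. In set 1, the deepest RNA-seq, 58 of 249 members tested were higher in the knockout and 52 were lower, 23.3% and 20.9%, where 21.5% and 18.7% of all features were called in those directions and 40.2% in either. The members' median log2 change was 0.05 and that of all features -0.02. The members' shares were near those of all features. Without WT replicate 1 or WT replicate 2 the share of members called was 13.2% or 15.7%, with 11.0% and 11.2% of all features.

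The RNA changes given next are the largest among members called with at least 10 counts in each library of the higher group. FBtr0076984 had 0.867 and 1.15 CPM in WT and 5.03 and 5.67 CPM in the knockout, a log2 change of 2.39 (SE 0.29, edgeR adjusted p = 0.00382). FBtr0308608 had 7 and 3 counts in WT and 22 and 32 in the knockout, a log2 change of 2.21. FBtr0302446 fell from 36.5 and 45.4 CPM to 3.98 and 11.9 CPM, a log2 change of -2.38 (SE 0.49, adjusted p = 0.0173). FBtr0301838 fell from 40.8 and 37.4 CPM to 12.1 and 13.1 CPM, a log2 change of -1.63. The calls of FBtr0308608 and FBtr0302446 were lost without WT replicate 1 (adjusted p = 0.0809 and 0.082) or WT replicate 2 (0.168 and 0.1). For FBtr0308608 leaving out knockout replicate 2 also ended the call. Knockout and WT libraries of set 1 did not overlap for any of these members, which were picked for large changes in those libraries. RNA of set 2, with few counts, did not repeat the falls. There FBtr0302446 had 2 and 0 counts in WT and 9 and 8 in the knockout, and FBtr0301838 had 10 and 3, then 19 and 10. FBtr0076984 had 0 and 1, then 13 and 5, and FBtr0308608 had 13 and 13, then 34 and 18, higher in the knockout as in set 1. Their levels differed widely between sets. WT RNA of FBtr0308608 stood at 0.759 and 0.287 CPM in set 1 and 101 and 114 CPM in set 2. Knockout RNA of FBtr0076984 stood at 5.03 and 5.67 CPM in set 1 and 85.5 and 47.4 CPM in set 2. These set 2 rises are therefore not repeats at a like level, and the cause was not tested.

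Knockout footprints in testis changed in few members. In set 1, 14 of 201 members tested were higher and 9 lower, 6.97% and 4.48%, where 2.67% and 8.22% of all features were called. The 14 came from 5 loci, and with 1 member per locus 5 were higher and 8 lower of 142. In set 2, with deeper footprints, 12 of 250 were higher and 11 lower, 4.80% and 4.40%, where 10.8% and 14.8% of all features were called. In either direction 9.20% of members and 25.6% of all features were called in set 2. The members' share was below that of all features under each alternative run in set 2, from 1.19% (9.37% of all features) without WT replicate 2 to 25.5% (29.3%) without knockout replicate 1, and was 5.58% (10.2%) without WT replicate 1. In set 1, 11.4% of members and 10.9% of all features were called in either direction, near-equal shares. The members' share in set 1 varied widely, both down and up, with the library left out. The median standard error on the log2 scale was 0.20 for members and 0.17 for all features in set 2, and 0.29 for both in set 1. The share called lower in set 2 also fell with length outside the members, from 20.6% under 250 to 7.07% from 1500 to 2500, and was 3.12%, 3.90%, 9.80% and 0% in the members' 4 bins. The median log2 change of members was 0.12 in set 1 and -0.08 in set 2, and 0.00 over all features in each.

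**Figure D3:**
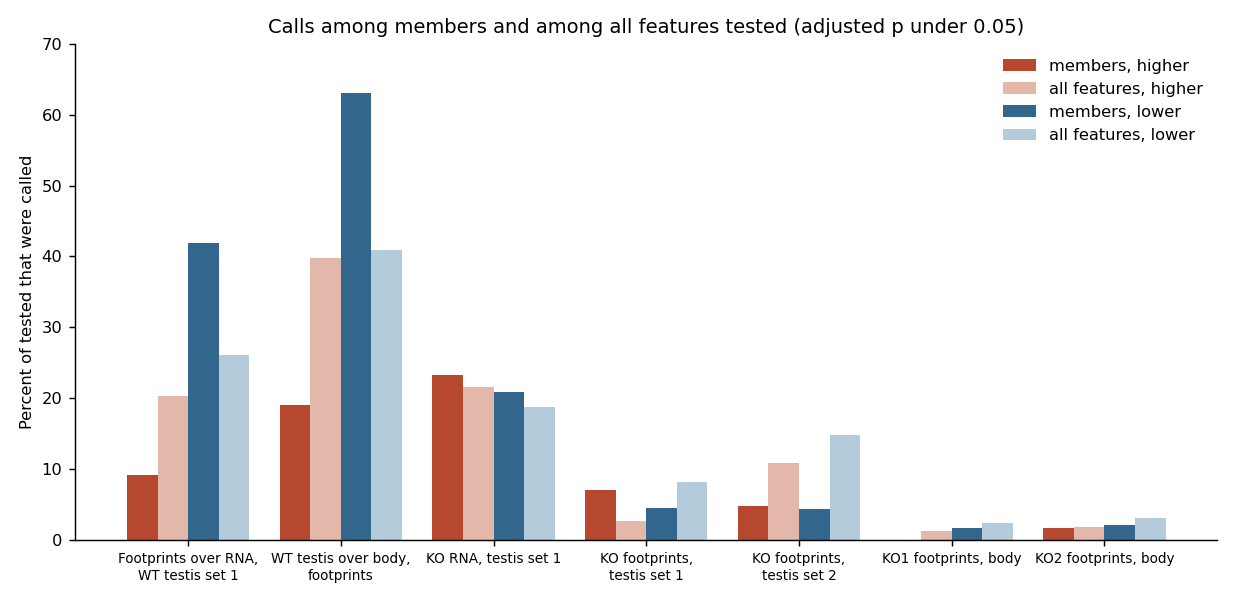
Percent of members and of all features tested that were called higher or lower (adjusted p under 0.05) in 7 comparisons; the first 2 are WT and the other 5 set knockout (KO) against WT. In knockout footprints of testis set 2, members were called in 4.80% (higher) and 4.40% (lower), all features in 10.8% and 14.8%.

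Both sets fitted together called 13 of 252 members higher and 8 lower, 5.16% and 3.17%, where 7% and 11.6% of all features were called. In either direction 8.33% of members and 18.6% of all features were called. The members' share was lower whichever library was left out, and the share of all features in those fits is not given here. The steadiest member pair was FBtr0301302 and FBtr0337034, of lengths 5071 and 4436 and of 1 locus. FBtr0301302 had footprint levels of 1018 and 930 CPM in WT and 405 and 412 CPM in knockout testis of set 1. In set 2 it had 351 and 282 CPM in WT and 191 and 143 CPM in the knockout. Knockout libraries lay below WT libraries in both sets, and the joint log2 change was -1.09 (SE 0.14, edgeR adjusted p = 0.00049). For FBtr0337034 the joint change was -1.14 (SE 0.13, adjusted p = 0.000237). RNA of FBtr0301302 fell by 0.89 on the log2 scale in set 1, from 718 and 692 CPM to 401 and 361 CPM.

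The named members that rose in the joint fit, those with at least 10 counts in each knockout library, changed less. FBtr0303602 went from 38.9 and 35.2 CPM to 73.8 and 74.9 CPM in set 1, and from 29.5 and 32.5 CPM to 45.7 and 35.3 CPM in set 2. Its joint log2 change was 0.63 (SE 0.17, edgeR adjusted p = 0.0275). FBtr0329846 went from 27.1 and 22.9 CPM to 50.2 and 33.2 CPM in set 1, and from 20.6 and 21.4 CPM to 29.7 and 34.0 CPM in set 2, a joint change of 0.60 (SE 0.15, adjusted p = 0.021). WT and knockout libraries did not overlap in either set for these members, and their RNA rose in set 1 by 0.78 and 0.63. Neither call held when single libraries were left out: adjusted p reached 0.0952 for FBtr0303602 without set 2 knockout replicate 1 and 0.0954 for FBtr0329846 without set 2 WT replicate 1, and 5 of the 8 libraries ended the call for each. A larger rise, singled out after its values were seen, was that of FBtr0073911, with 4 and 1 footprint counts in WT and 25 and 15 in knockout testis of set 2, and 1 count in all in set 1. LanA footprints had a joint change of 0.29 (SE 0.16, adjusted p = 0.273), which did not pass.

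Few members were called in both sets. Of 201 members tested in both sets, 23 were called in set 1 and 19 in set 2. Of these, 7 were called in both, 30.4% of the first and 36.8% of the second, and 5 of the 7 had the same sign. The set 1 calls were 14 higher from 5 loci and 9 lower from 8 loci. FBtr0301302 and FBtr0337034, both among the 7, are of 1 locus. Isoforms thus count more than once among members, whereas a locus without a member enters all features once. Over 8098 features, 746 were called in both, 84.5% of the set 1 calls and 29.6% of the set 2 calls, and 710 of them had the same sign. Across the 201 members Pearson's r between the changes was 0.10 and Spearman's rho 0.21, and over 8098 features 0.29 and 0.43. These are descriptions over features that share libraries within a set. The exceptions in sign were FBtr0302446 and FBtr0342740, the second singled out after its values were seen. FBtr0302446 fell in set 1 from 58.7 and 89.7 CPM to 29.5 and 10.7 CPM, and rose in set 2 from 5.56 and 5.11 CPM to 15.4 and 41.1 CPM. Its log2 changes were -2.08 (SE 0.48) and 2.38 (SE 0.48). The difference of the changes between sets had an adjusted p of 0.0585 by edgeR for each of these members, and 0 of 252 members and 0% of all features passed that test. At an unadjusted p under 0.05 there were 31 members, and the DESeq2 Wald test called 1.98% of members.

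**Figure D4:**
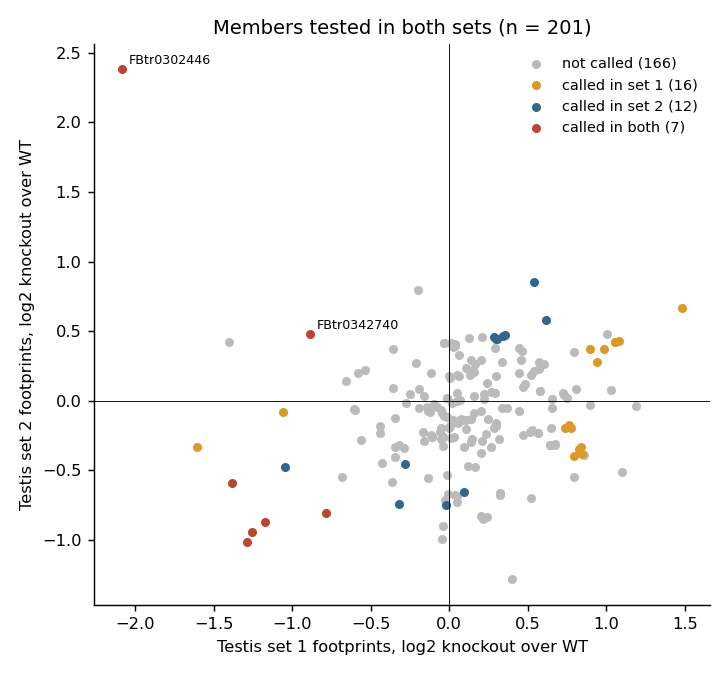
Log2 change of footprints, knockout over WT, in testis set 1 (horizontal) and set 2 (vertical) for the 201 members tested in both sets, coloured by the sets in which the member was called. FBtr0302446 sits alone at -2.08 and 2.38, and 5 of the 7 members called in both sets fell in both.

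A change in translational efficiency means that footprints and RNA responded unequally to the knockout, and it was tested as an interaction of assay and genotype. In set 1, 0 of 251 members were higher and 4 lower, 0% and 1.59%, where 0.201% and 4.7% of all features were called higher and lower and 4.9% in either direction, and the members' median was 0.04 against -0.06 for all features. FBtr0289982 had footprint levels of 419 and 413 CPM in WT and 115 and 153 CPM in the knockout, while its RNA went from 453 and 452 CPM to 571 and 543 CPM. The interaction was -2.02 (SE 0.22, edgeR adjusted p = 0.00138). FBtr0074509 went from 188 and 142 CPM of footprints to 56.1 and 97.4 CPM, with RNA of 191 and 203 CPM and then 248 and 238 CPM. Its interaction was -1.47 (SE 0.33, adjusted p = 0.0457). Knockout libraries lay below WT libraries in footprints and above them in RNA for both members, which are also the 2 members with the strongest testis lean. The call of FBtr0074509 was lost in 7 of 14 alternatives, with an adjusted p of 0.164 without footprint WT replicate 1, 0.148 without footprint knockout replicate 1, and 0.242 and 0.207 without RNA-seq WT replicate 1 and replicate 2. That of FBtr0289982 held in all 14. The share of members called in set 1 was 2.78% and 3.97% without footprint WT replicate 2 and footprint knockout replicate 2, and between 0.398% and 0.80% without footprint knockout replicate 1, either RNA-seq WT replicate or RNA-seq knockout replicate 1. In set 2 footprints, FBtr0289982 changed by -0.33 (SE 0.10, adjusted p = 0.0507), short of the threshold, and FBtr0074509 by -0.48 (SE 0.13, adjusted p = 0.0425). The interaction in set 2, whose RNA-seq held few counts, called 7 of 248 members higher and 2 lower, 2.82% and 0.806%, where 1.7% and 1.76% of all features were called, 3.46% in either direction.

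Members were also grouped by their tissue lean. Of the 16 that leaned at least 4-fold to testis, 5 were lower and 0 higher in knockout footprints of set 1, and the median log2 change was -0.60. FBtr0301302 and FBtr0337034, of 1 locus, are both among the 5, which are therefore not independent. Of 60 body-leaning members tested, 2 were lower and 9 higher, with a median of 0.15. All 14 members called higher in set 1 footprints came from 5 loci, so these 9 are not independent. Over all features, the testis-leaning class had 447 lower and 134 higher of 2429 tested, with a median of -0.09, and the body-leaning class had 82 lower and 14 higher of 871, with a median of -0.28. The body-leaning members and the body-leaning features thus had medians of opposite sign, a difference that was not tested and in which isoforms count more than once. In RNA of set 1 the body-leaning medians were 0.06 for members and -0.44 for all features. The testis-leaning medians were -0.05 and 0.13. The tissue classes came from set 2 and body, whose libraries the set 1 change does not use. Whether a change in the cell types of the knockout testis moves with these values was not tested.

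In set 2 RNA-seq, 16 of 138 members were higher and 16 lower, 11.6% each, where 10.6% and 11.1% of all features were called. With 1 member per locus 8 were higher and 12 lower of 95. Without WT replicate 1 or WT replicate 2 the share of members called in either direction was 12.9% or 11.4%. The 23 members of 6000 or more that could be tested had a median log2 change of 1.31, and 34.8% of them were called higher and 4.35% lower. Isoforms of 1 locus enter these shares more than once. In the deeper set 1 RNA, the 26 members of that length, from 14 loci, had a median of 0.15, with 23.1% called higher and 7.69% lower. The libraries behind the set 2 values differed between members. FBtr0332345 had 65 RNA counts in knockout replicate 1 and 7 in knockout replicate 2, against 14 and 10 in WT. Its footprint change in the same set was -0.68 (SE 0.25, edgeR adjusted p = 0.0964). Its knockout libraries lay on either side of the WT libraries in RNA, and its RNA change of 1.40 (SE 0.65, adjusted p = 0.156) did not pass. FBtr0074205, of length 16214, had 5 and 10 RNA counts in WT and 33 and 26 in the knockout, where both knockout libraries lay above both WT libraries. Its log2 change was 1.88 (SE 0.46, edgeR adjusted p = 0.0144). The deeper RNA of set 1 went the other way for FBtr0074205. There its RNA fell from 134 and 140 CPM in WT to 31.5 and 65.1 CPM in the knockout. It was called lower in set 1 (edgeR adjusted p = 0.0217), so the set 2 rise was not repeated.

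In body, few members changed. Against WT, KO1 footprints were higher in 0 and lower in 4 of 247 members, 0% and 1.62%, where 1.19% and 2.31% of all features were called, 3.49% in either direction. KO2 footprints were higher in 4 and lower in 5, 1.62% and 2.02%, where 1.86% and 3.13% were called, 4.98% in either direction. Both lines were compared with the same WT libraries. Without WT replicate 1 the shares called were 0.405% and 1.21%, and without WT replicate 2 they were 0% and 0.407%. For KO1 they lay between 0% and 0.81% without either KO1 library and were 5.67% and 4.86% without KO2 replicate 1 and replicate 2, and for KO2 the share was 2.02% without KO2 replicate 1. The members' median log2 changes were -0.04 and -0.07, and 0.01 and 0.00 for all features. Body RNA, in which 122 members could be tested, called 2 higher and 0 lower in each line, 1.64%, where 3.11% and 2.38% of all features were called higher, 1.23% and 1.16% lower, and 4.34% and 3.54% in either direction.

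The members that fell in both lines had few body footprints. FBtr0074205, of length 16214, had 19 and 42 counts in WT, 3 and 1 in KO1 and 6 and 1 in KO2. The log2 changes were -3.02 (SE 0.58, adjusted p = 0.0137) and -2.51 (SE 0.52, adjusted p = 0.0154) by edgeR. FBtr0301302, the locus that also fell in testis, had 20.3 ± 0.33 CPM (SD, n = 2) in WT body, 4.89 and 8.07 CPM in KO1 and 5.17 and 4.47 CPM in KO2. Its changes were -1.62 (SE 0.29, adjusted p = 0.00803) and -2.02 (SE 0.30, adjusted p = 0.00179). In neither member did a knockout library reach a WT library. The calls of FBtr0074205 were lost without WT replicate 1 (adjusted p = 0.107 and 0.12) or WT replicate 2 (0.119 and 0.128) and with the DESeq2 Wald test (0.0852 and 0.124), and leaving out KO1 replicate 1, KO1 replicate 2 or KO2 replicate 1 ended its call in that line (0.0742, 0.242 and 0.106). The KO1 call of FBtr0301302 was lost without WT replicate 1, WT replicate 2 or KO1 replicate 1 (0.0537, 0.114 and 0.0878). FBtr0335387, the member with most body footprints, had 8759 and 7030 CPM in WT, 5173 and 4968 CPM in KO1 and 4131 and 4468 CPM in KO2. It did not overlap between WT and knockout, yet its changes of -0.65 (SE 0.24, adjusted p = 0.194) and -0.89 (SE 0.24, adjusted p = 0.0578) did not pass.

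**Figure D5:**
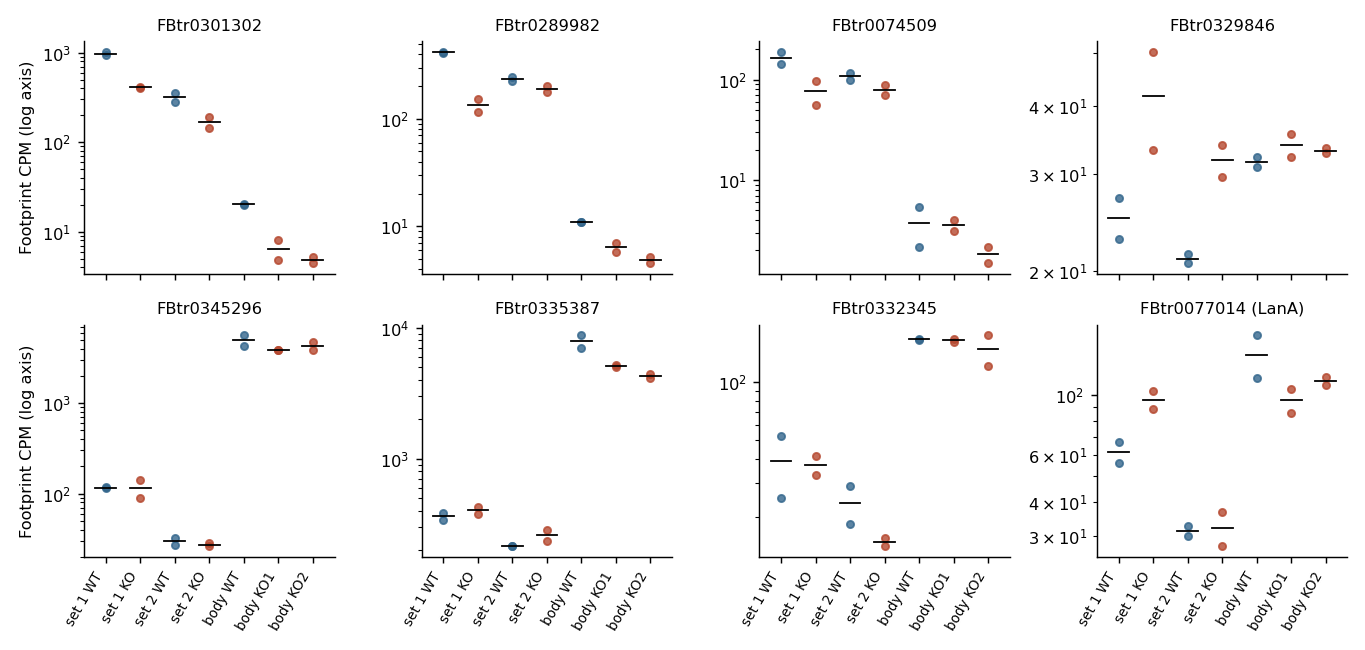
Footprint CPM (log axis, its range set per panel) of 8 members in each library of testis set 1, testis set 2 and body; points are libraries (blue WT, red knockout), bars are means of 2. FBtr0301302 is lower in knockout than in WT libraries in both testis sets and in body, and FBtr0332345 lies near 165 CPM in WT body against 18.6 and 29.0 CPM in WT testis of set 2.

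The knockout effect on footprints was then compared between testis set 2 and the mean of the body lines. Of 252 members, 10 were higher and 4 lower in this difference, 3.97% and 1.59%, where 2.84% and 2.63% of all features were called, 5.47% in either direction. For FBtr0335387 the difference was 1.04 (SE 0.25, edgeR adjusted p = 0.0322): testis footprints were 215 and 214 CPM in WT and 285 and 237 CPM in the knockout, while body footprints were lower in both lines. With testis set 1 in place of set 2, 1.20% of members were called. Leaving out 1 library at a time gave 0.794% of members without body WT replicate 1 and 11.9% without testis set 2 knockout replicate 1.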

How the data were processed

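The authors deposited, for each of the 28 libraries, a whole-number read count per transcript and a length value per transcript; per the labels these come from footprint libraries amplified by in vitro transcription and from RNA-seq libraries of a SEQuoia Express kit. Per the submitters' processing notes, CASAVA 1.8, STAR 2.7.0a and build dm6 were used. The counting tool, the annotation release, the unit of the deposited length column and the treatment of strand and of reads shared by isoforms are not given in the sources used here, so overlapping genes and isoforms are uncertain. RNA-seq reads outside the coding region may or may not be counted.

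A locus joined transcripts listed up to 50 lines apart with count profiles at a Bray-Curtis distance of 0.1 or less. Features were the 252 members plus the transcript with the most counts of each locus without a member, 15231 in all. Reading the 5% rule against the larger of a pair would give 250 members. Tests on the deposited counts used edgeR 4.0.16 under R 4.3.3 (quasi-likelihood F-test, TMM scaling, filterByExpr at a minimum count of 10, Benjamini-Hochberg adjustment over all features), after tests on simulated counts. CPM were computed from the counts with TMM scaling within assay, and testis set 1 was scaled apart from set 2 and body in footprints. Fold changes of groups with few counts depend on the prior count. Tissue and body fits shared 1 estimate of the spread over their groups. Alternatives were DESeq2 1.42.0, DESeq2 size factors, other count filters, a replicate block, uncollapsed transcripts, subsets of members, set 1 for set 2, and leaving out each replicate.

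Members were named by rule: the 4 longest, the 2 with the largest rise and the 2 with the largest fall among those called with at least 10 counts per library of the higher group, the 2 with most footprints per length in each tissue, and those in the reference gene table, which paired 10 identifiers. The members and lists were chosen with earlier results of these data known. Members named for a change were picked from the libraries of that comparison, so a lack of overlap between those libraries adds no support. Lists of genes by function and of cell type markers were not used, because identifiers are not paired with names, apart from the chromatin list, where kis was found. No sequences are shown.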

Additional observations from a re-analysis of the deposited data

Results flagged for a closer look

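In 14 of 252 members, the footprint response to the knockout in testis set 2 departed from that in body by the test of the difference. That is 5.56% of members, near the 5.47% of all features called. The 10 higher came from 5 loci and the 4 lower from 3. Among the members named by rule, the difference, testis minus body on the log2 scale, was 3.19 for FBtr0074205, 2.78 for FBtr0302446 and 1.04 for FBtr0335387. FBtr0074205 had footprint levels of 9.59 and 10.4 CPM in WT and 12.4 and 14.6 CPM in knockout testis of set 2, against 8.28 and 5.92 CPM in WT body and 0.367 to 1.33 CPM in the 4 knockout body libraries. In testis set 1 the same member had 59.9 and 75.6 CPM in WT and 38.4 and 18.2 CPM in the knockout. No group held more than 2 samples, so single libraries were not tested as outliers.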

How the results depend on the processing

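Of 482 recomputed values of named members, 0 reversed their direction and 49 lost their call, in 11 of 34 results. Keeping every transcript left after the 5% rule gives the same members, so it has no value of its own. Body and set 2 RNA-seq depth limits what could be seen there.

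Shares of members called that moved past 1.5 times were these. Here and below they are given for members alone. A setting or a library left out can also move the share of all features. A move in these shares is therefore not a result about members. With the 100 longest members they were 17.2% in set 1 footprints, 3.00% and 2.00% in translational efficiency of sets 1 and 2, and 3.03% and 8.08% in body KO1 and KO2 footprints. With 1 member per locus body RNA gave 2.60% in KO1 and in KO2. DESeq2 size factors gave 0.797% in translational efficiency of set 1 and 0.82% in KO1 body RNA. Without the low-count filter they were 12.7% in set 2 RNA, 1.59% in the set difference, 0.397% and 10.7% in translational efficiency, 5.18% and 5.58% in body footprints and 0.397% and 0.794% in body RNA. At a mean of 50 counts they were 24.3% in set 1 footprints, 46.9% in set 2 RNA, 12.7% and 16.7% in translational efficiency, 0.478% in KO1 and in KO2 body footprints, and 0% and 6.25% in body RNA. The DESeq2 Wald test gave 2.49% in set 1 footprints, 5.80% in set 2 RNA, 1.98% in the set difference, 7.97% and 7.26% in translational efficiency, 0.81% and 1.62% in body footprints and 0.82% in KO1 body RNA. Uncollapsed transcripts gave 0.82% in KO1 body RNA, and set 1 in place of set 2 gave 1.20% in the tissue difference of the knockout effect. The cause was not tested.

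Replicate numbers did not pair the samples: deviations of same-numbered libraries correlated from -0.506 to 0.262. With the replicate block the shares were 0.498% in set 1 footprints, 2.78% in both sets, 0.398% in translational efficiency of set 1, 2.02% in KO2 body footprints and 3.57% in the tissue difference of the knockout effect. Crossing the numbers, chosen after seeing the data, gave 20.4% in set 2 footprints.

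Leaving out 1 replicate at a time gave 13.2% to 54.0% in set 1 RNA, 1.86% to 15.1% in set 1 footprints, 1.19% to 25.5% in set 2 footprints, 11.4% to 28.4% in set 2 RNA and 2.40% to 7.17% in both sets of footprints. It gave 0% to 4.78% in the set difference, 0.398% to 3.97% and 2.38% to 9.68% in translational efficiency of sets 1 and 2, 0% to 5.67% and 0.407% to 4.45% in KO1 and KO2 body footprints, 0% to 1.504% and 1.30% to 2.03% in KO1 and KO2 body RNA, and 0.794% to 11.9% in the tissue difference of the knockout effect. WT testis against body gave 72.6% to 82.9%, and footprints over RNA gave 37.2% to 54.0%. A lone library was assumed to vary like the other groups.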
